A study of Mus with 6 samples.

Results

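Expression of 40 genes of liver endothelium was followed in whole-liver RNA of mice with alcoholic steatohepatitis, a fatty liver disease with inflammation caused by ethanol. The genes were chosen by name as known markers of sinusoidal and vascular endothelial cells and as ligands that these cells secrete. Earlier results of these data were known when the genes were chosen. All 40 were found among the 48882 genes of the expression table. Of the 40, 39 passed a filter of at least 0.5 TPM on average (a transcript level corrected for gene length and library total) and were tested among 14155 genes. Aplnr, the apelin receptor gene, had no value in any library.

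The series held 6 liver samples. There were 3 from mice with a knock out of the fatty acid-binding protein gene Fabp4 (labelled FABP4-/-, here KO) and 3 from littermates labelled WT. All 6 had taken a Lieber-DeCarli liquid diet with ethanol for 8 weeks and then 1 ethanol binge, so both groups carry the disease model, and no liver spared ethanol is compared. The labels give no age, sex or strain, and do not say whether the knock out covers the whole body. In the KO libraries Fabp4, which is expressed in capillary endothelium as well as in adipocytes and macrophages, had no value, against 14.7, 8.15 and 19.96 TPM in the WT libraries.

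Liver sinusoids are lined by endothelial cells with open pores and no firm basement membrane, which take up waste macromolecules and immune complexes through scavenger and Fc receptors. These cells share receptors and junction proteins with other vessels, such as VEGF receptors and VE-cadherin. Endothelial cells around the central vein also secrete Wnt ligands and R-spondin 3, which maintain the gene programme of the hepatocytes next to them. In damaged livers sinusoidal cells can lose their pores and take on features of other capillaries, a change known as capillarization.

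Depth is unknown, because TPM keeps none, and 20664 to 21438 genes had a value in each library. Along the first principal component WT replicate 2 scored 38.1 and stood apart from the rest, which scored -22.3 to 2.50. Along the second, KO replicate 1 scored 30.8 and the rest -21.8 to 5.92. The liver label was borne out by hepatocyte transcripts, with all 14 hepatocyte markers valued in every library. In bulk RNA, more endothelial cells and more RNA per endothelial cell cannot be told apart. Because no label says that replicates are separate mice, a p-value here reflects library-to-library spread, which may be technical.

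Endothelial genes were mostly higher in KO than in WT livers, by moderate amounts. The groups overlapped for all 3 Wnt and R-spondin ligands, as they did for most genes tested. The log2 difference was above 0 for 37 of the 39 genes tested, where 57.4% of all genes tested were above 0. Its median over the 39 genes was 0.38, against 0.04 over all genes tested. For 22 genes the 3 KO values all lay above the 3 WT values, which held for 8.94% of all genes, and for no endothelial gene did they all lie below, which held for 4.38%. None of the 39 passed the limma test at a Benjamini-Hochberg adjusted p under 0.05 (0.00706% of all genes did), and the smallest adjusted p among them was 0.522. At an unadjusted limma p under 0.05, 17 of the 39 were higher in KO (5.12% of all genes) and 0 lower (2.91%). After scaling each library to the same median, 20 genes were wholly higher in KO and 0 wholly lower, where all genes split evenly (6.57% higher and 6.39% lower), and 15 had an unadjusted p under 0.05 (3.99%). The genes below are therefore described by their values and intervals, and an interval clear of 0 for a gene is not adjusted for the number of genes tested.

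**Figure D1:**
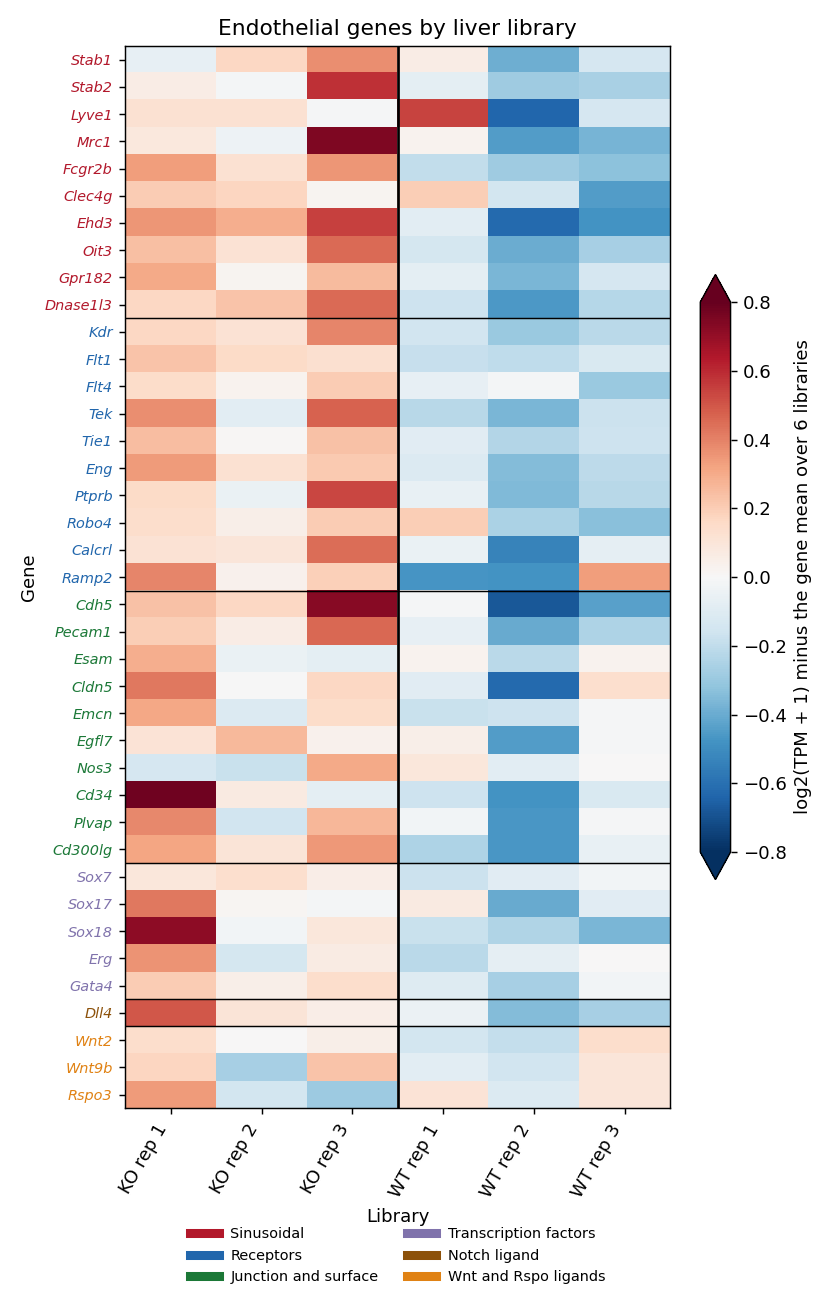
Level of each of 39 endothelial genes in the 3 KO and the 3 WT livers, drawn as the deviation of log2(TPM + 1) from the mean of that gene in all 6 libraries, with red above and blue below. Most rows are redder in the KO columns, WT replicate 2 is the lowest library for 28 genes, and the 3 Wnt and Rspo rows at the bottom show no such division.

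The 10 sinusoidal genes were all above 0 in log2 difference, and 6 had no overlap between groups. Ehd3, an endocytic recycling gene of sinusoidal endothelium (mm10 chromosome 17, 73804841 to 73832093, plus strand), had 50.0, 47.9 and 57.4 TPM in KO livers, against 36.7, 24.9 and 27.7 TPM in WT livers. The KO values all lay well above the highest WT value (log2 0.79, SE 0.17, 95% interval 0.41 to 1.18, limma adjusted p 0.522). Dnase1l3, a secreted nuclease that degrades DNA of dying cells (chromosome 14, 7965187 to 7994765, minus strand), had 25.8, 26.9 and 31.7 TPM in KO livers and 20.3, 16.3 and 19.4 TPM in WT livers. Its log2 difference was 0.57 (SE 0.14, interval 0.25 to 0.89).

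Fcgr2b, the inhibitory Fc receptor through which sinusoidal cells clear immune complexes, was the most abundant of the 40 genes. It had 83.6, 72.0 and 85.0 TPM in KO livers, against 57.7, 54.1 and 52.6 TPM in WT livers (log2 0.54, SE 0.12, interval 0.26 to 0.82). The WT libraries were tightly grouped and every KO library stood clear of them. Oit3, a secreted zona pellucida domain protein, had 25.5, 23.2 and 29.6 TPM in KO livers and 19.3, 16.0 and 17.6 TPM in WT livers (log2 0.54, SE 0.14). Gpr182, an atypical chemokine receptor, had 35.7, 29.3 and 34.4 TPM in KO livers and 27.3, 22.1 and 26.2 TPM in WT livers (log2 0.38, SE 0.14). In both genes KO replicate 2 was the lowest KO library and WT replicate 1 the highest WT library. The gap between them was narrow for Gpr182 and wider for Oit3.

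The large scavenger receptors were less uniform. Stab2, the hyaluronan receptor of sinusoidal cells, had 9.93, 9.39 and 14.7 TPM in KO livers and 8.94, 7.61 and 7.79 TPM in WT livers (log2 0.42, SE 0.18, interval -0.01 to 0.84). The groups did not overlap, but KO replicate 3 carried much of the difference, which was 0.23 without it. Its relative Stab1 had 9.04, 10.8 and 12.6 TPM in KO livers and 9.98, 7.02 and 8.58 TPM in WT livers (log2 0.31, SE 0.17), with WT replicate 1 above KO replicate 1. Mrc1, the mannose receptor, had 26.6, 24.3 and 42.8 TPM in KO livers and 25.6, 18.1 and 19.1 TPM in WT livers (log2 0.53, SE 0.23). Here KO replicate 3 stood far above the rest, and the log2 difference was 0.29 without it. Clec4g, a C-type lectin of sinusoidal cells, had 47.9, 47.0 and 42.2 TPM in KO livers and 47.8, 37.4 and 30.3 TPM in WT livers (log2 0.26, SE 0.17), and WT replicate 1 reached the KO level.

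Lyve1, a hyaluronan receptor of sinusoidal and lymphatic endothelium, differed least of the sinusoidal genes. It had 12.7, 12.7 and 11.6 TPM in KO livers and 17.4, 7.11 and 10.5 TPM in WT livers (log2 0.15, SE 0.27, interval -0.48 to 0.79). Its KO values were nearly equal, whereas its WT values spanned both the highest and the lowest of the 6 libraries. Without WT replicate 2 the sign turned (log2 -0.13).

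The sinusoidal genes Stab1, Mrc1, Fcgr2b and Lyve1 are also known in macrophages. Macrophage transcripts were higher on average in KO livers, but varied widely between libraries of the same group. All 16 Kupffer cell and macrophage markers were above 0 in log2 difference (median 0.71). Of these, 4 were wholly higher in KO (8.94% of all genes were). None of the 16 was at 0 in any library. Their summed level was 775, 879 and 1493 TPM in KO livers, against 1034.5, 404 and 528 TPM in WT livers. In these sums WT replicate 1 lay above KO replicates 1 and 2, so the groups overlapped. KO replicate 3 was the highest library for 15 of the 16, as it was for 7 of the 10 sinusoidal genes. The part of macrophages in the values of the shared genes was not tested.

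**Figure D2:**
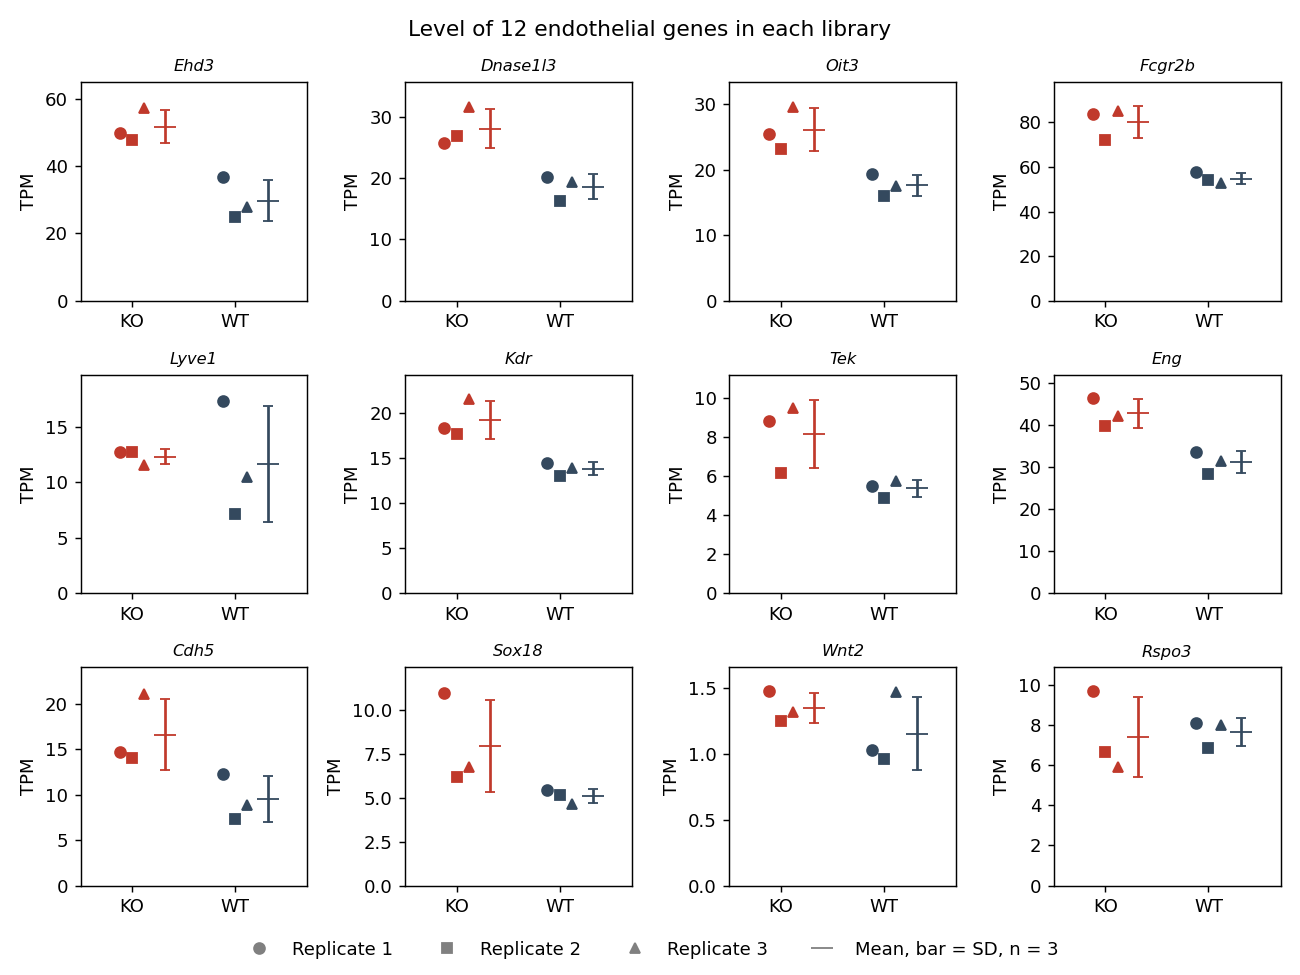
TPM of 12 endothelial genes in each library, KO left of WT, with the mean and SD of each group (n = 3) at the right of its points and every axis starting at 0. The KO points lie above the WT points for Ehd3, Dnase1l3, Oit3, Fcgr2b, Kdr, Tek, Eng, Cdh5 and Sox18, and overlap them for Lyve1, Wnt2 and Rspo3.

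All 10 receptor genes with a value were above 0 in log2 difference, and 8 had no overlap. Kdr, the main VEGF receptor (VEGFR2; chromosome 5, 75933265 to 75979074, minus strand), had 18.4, 17.7 and 21.6 TPM in KO livers, against 14.5, 13.1 and 13.9 TPM in WT livers (log2 0.45, SE 0.13, interval 0.15 to 0.74). Flt1, a VEGF receptor that also acts as a decoy, was present at a lower level, with 2.82, 2.62 and 2.56 TPM in KO livers and 1.87, 1.83 and 1.99 TPM in WT livers. Its mean was 1.40 times the WT mean, close to the 1.39 times of Kdr, though on the log2(TPM + 1) scale the pseudocount brings its difference down to 0.34 (SE 0.13). Both receptors were thus separated by more than the spread within groups. Flt4, the VEGF-C receptor, had 6.73, 6.12 and 7.02 TPM in KO livers and 5.65, 5.90 and 4.67 TPM in WT livers (log2 0.25, SE 0.14, interval -0.06 to 0.57), barely without overlap.

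The angiopoietin receptor genes were likewise higher in each KO library. Tek, which encodes the receptor TIE2, had 8.82, 6.16 and 9.49 TPM in KO livers and 5.50, 4.87 and 5.73 TPM in WT livers (log2 0.51, SE 0.17, interval 0.11 to 0.91). Tie1, its co-receptor, had 6.94, 5.73 and 6.87 TPM in KO livers and 5.28, 4.70 and 4.97 TPM in WT livers (log2 0.33, SE 0.13). Ptprb, the phosphatase VE-PTP that restrains TIE2, had 15.5, 13.3 and 20.5 TPM in KO livers and 13.2, 10.6 and 11.8 TPM in WT livers (log2 0.42, SE 0.17). KO replicate 2 was the lowest KO library in all of these, and for Ptprb it lay next to WT replicate 1. Without KO replicate 3 the log2 difference of Ptprb was 0.26.

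Eng, which encodes the BMP9 and TGF-beta co-receptor endoglin, had 46.4, 39.8 and 42.3 TPM in KO livers and 33.7, 28.5 and 31.4 TPM in WT livers (log2 0.44, SE 0.12, interval 0.16 to 0.73). It was the most abundant of the receptor genes and was among those with the smallest SE. Calcrl, the receptor for adrenomedullin and calcitonin gene-related peptide, had 12.2, 12.1 and 15.6 TPM in KO livers and 10.8, 7.41 and 10.6 TPM in WT livers (log2 0.44, SE 0.18), a difference that was 0.28 without WT replicate 2. Ramp2, the partner that gives Calcrl its adrenomedullin specificity, had 18.8, 14.4 and 16.2 TPM in KO livers but 9.90, 9.85 and 18.0 TPM in WT livers (log2 0.41, SE 0.23). WT replicate 3 lay within the KO range, so its groups overlapped although its difference was close to that of Calcrl. Robo4, an endothelial guidance receptor, had 6.51, 6.05 and 6.87 TPM in KO livers and 6.82, 4.74 and 4.41 TPM in WT livers (log2 0.26, SE 0.17), again with overlap through WT replicate 1.

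Junction and surface genes were split. Of 10, 4 had no overlap, 5 were above 0 with overlap and Nos3 was not above 0. Cdh5, which encodes VE-cadherin, the adhesion molecule of endothelial junctions (chromosome 8, 104101613 to 104144504, plus strand), had 14.7, 14.0 and 21.1 TPM in KO livers and 12.3, 7.36 and 8.88 TPM in WT livers (log2 0.75, SE 0.22, interval 0.24 to 1.26). Its log2 difference was close to that of Ehd3, and the order of these 2 genes depended on the libraries kept, being 0.82 for Cdh5 and 0.81 for Ehd3 without KO replicate 1. Pecam1 (CD31), another junction molecule, had 11.8, 10.6 and 14.3 TPM in KO livers and 9.64, 7.42 and 8.40 TPM in WT livers (log2 0.48, SE 0.16). Cd300lg, which encodes nepmucin, a surface mucin of capillary and venular endothelium, had 13.5, 11.5 and 13.8 TPM in KO livers and 8.83, 7.44 and 10.2 TPM in WT livers (log2 0.51, SE 0.15). These 3 genes each had their lowest value in WT replicate 2 and their highest in KO replicate 3.

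Genes more typical of continuous or diaphragm-bearing vessels depended on single libraries, as did some sinusoidal genes such as Stab2 and Mrc1. Cd34, a sialomucin of vessels that is low in normal sinusoids, had 3.85, 1.97 and 1.68 TPM in KO livers and 1.53, 1.03 and 1.61 TPM in WT livers (log2 0.51, SE 0.24, interval -0.06 to 1.08). Most of this difference lay in KO replicate 1, without which it was 0.25, and the groups overlapped after median scaling. Plvap, a component of the diaphragms of endothelial pores, had 49.1, 33.4 and 45.0 TPM in KO livers and 36.7, 26.7 and 37.0 TPM in WT livers (log2 0.33, SE 0.19). Cldn5, a tight junction claudin, had 15.3, 11.2 and 12.7 TPM in KO livers and 10.4, 6.93 and 12.4 TPM in WT livers (log2 0.39, SE 0.22). Both overlapped, with KO replicate 2 inside the WT range. Without WT replicate 2 the log2 difference was 0.17 for Cldn5 and 0.18 for Plvap.

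The other 4 genes of this group overlapped between groups and had intervals that spanned 0. Emcn (endomucin) averaged 4.57 ± 0.795 TPM in KO livers and 3.72 ± 0.314 TPM in WT livers (SD, n = 3 each). Egfl7, a secreted endothelial matrix protein, averaged 22.0 ± 1.86 TPM in KO livers and 18.2 ± 3.43 TPM in WT livers (SD, n = 3 each). Esam, an endothelial adhesion molecule, averaged 10.8 ± 1.73 TPM in KO livers and 9.96 ± 1.04 TPM in WT livers (SD, n = 3 each), a log2 difference of 0.11 (interval -0.24 to 0.46) that was -0.01 without KO replicate 1. Nos3, the endothelial nitric oxide synthase, had 1.12, 1.06 and 1.87 TPM in KO livers and 1.48, 1.19 and 1.33 TPM in WT livers. Its log2 difference was -0.01 (SE 0.18, interval -0.42 to 0.41), so that a difference of this size either way lies within its error. KO replicates 1 and 2 were the lowest libraries and KO replicate 3 the highest.

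**Figure D3:**
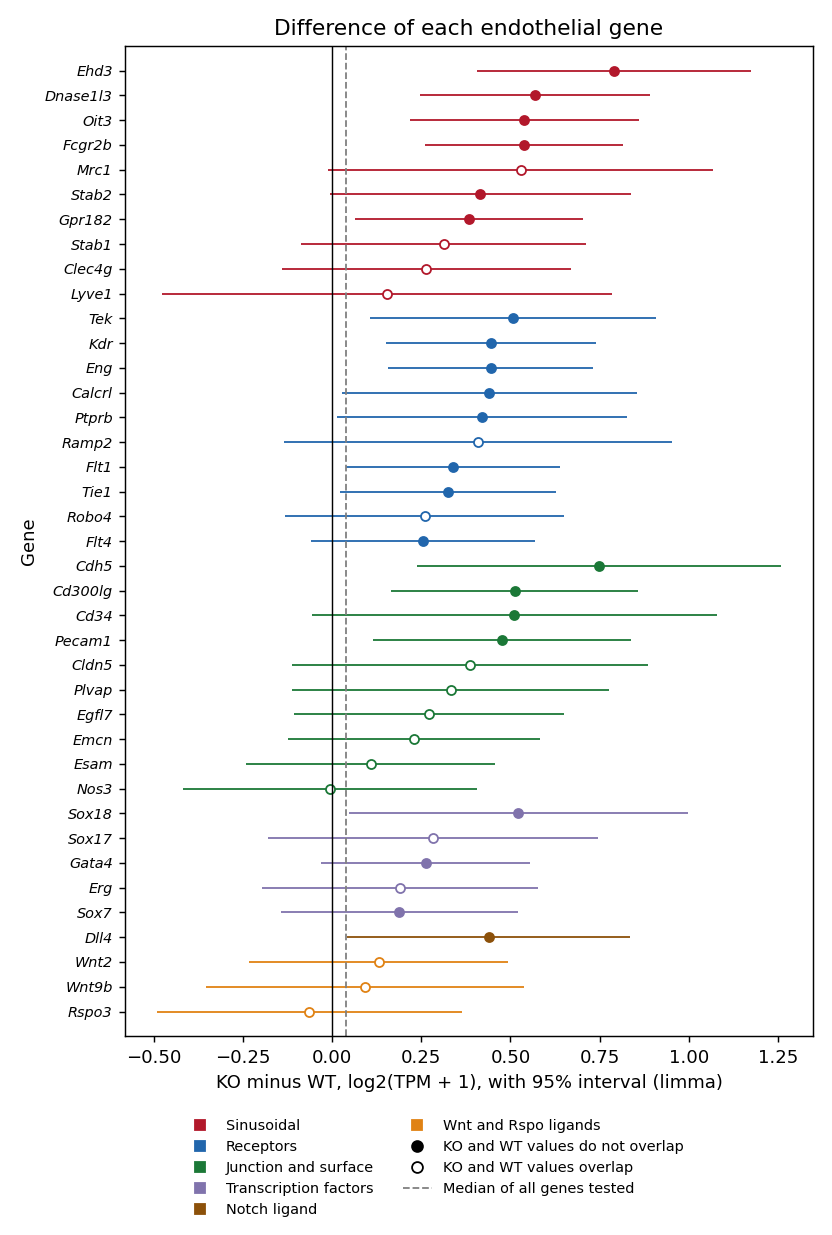
Log2 difference of KO minus WT for 39 endothelial genes with the 95% interval from limma, ordered by size within each group of genes. Filled points are the 22 genes whose 3 KO values lie above the 3 WT values, open points overlap, and the dashed line is the median of all genes tested (0.04).

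The 5 transcription factor genes were above 0, and 3 had no overlap. Sox18, an endothelial SOX factor, had 10.99, 6.19 and 6.75 TPM in KO livers and 5.45, 5.16 and 4.67 TPM in WT livers (log2 0.52, SE 0.21). KO replicate 1 held much of the difference, which was 0.29 without it. Its relatives were rare. Sox7 had 1.06, 1.13 and 1.01 TPM in KO livers and 0.717, 0.823 and 0.909 TPM in WT livers (log2 0.19, SE 0.14), and Sox17 averaged 1.17 ± 0.382 TPM in KO livers and 0.782 ± 0.291 TPM in WT livers (SD, n = 3 each). Sox7 overlapped after median scaling.

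Gata4, the factor that specifies sinusoidal against continuous endothelium in the mouse liver, had 10.5, 9.36 and 10.04 TPM in KO livers and 8.31, 7.33 and 8.84 TPM in WT livers (log2 0.26, SE 0.13, interval -0.03 to 0.56). The groups did not overlap, with KO replicate 2 just above WT replicate 3. Erg, an ETS factor of all endothelium, had 4.73, 3.04 and 3.67 TPM in KO livers and 2.84, 3.24 and 3.48 TPM in WT livers (log2 0.19, SE 0.17), with KO replicate 2 inside the WT range. The Notch ligand gene Dll4 had 4.52, 3.20 and 3.06 TPM in KO livers and 2.78, 2.07 and 2.26 TPM in WT livers (log2 0.44, SE 0.17, interval 0.04 to 0.84). KO replicate 1 was the highest library for 4 of the 5 factors and for Dll4.

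The 3 Wnt and R-spondin ligand genes overlapped between groups, as did most genes tested. Rspo3, which encodes the R-spondin that amplifies Wnt signalling around the central vein (chromosome 10, 29453106 to 29535867, minus strand), had 9.66, 6.63 and 5.89 TPM in KO livers and 8.08, 6.83 and 8.00 TPM in WT livers. The KO values lay on both sides of the WT values, and the log2 difference was -0.06 (SE 0.18, interval -0.49 to 0.36). Wnt2 had 1.47, 1.24 and 1.32 TPM in KO livers and 1.03, 0.962 and 1.47 TPM in WT livers (log2 0.13, SE 0.16, interval -0.23 to 0.49). Wnt9b, expressed by central vein endothelium, had 0.683, 0.240 and 0.750 TPM in KO livers and 0.408, 0.340 and 0.596 TPM in WT livers (log2 0.09, SE 0.19, interval -0.35 to 0.54), near the filter. By ratio of means Wnt9b was 1.24 and Wnt2 1.17 times the WT level, and with a pseudocount of 0.1 their log2 differences were 0.18 and 0.23. The median log2 difference of the 26 other genes tested that are not sinusoidal, 0.36, lies inside the intervals of both Wnt genes and at the upper end of that of Rspo3, and a difference between the ligands and these genes was not tested.

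Set against the endothelial genes of the same library, Rspo3 was lower in KO livers. For each 100 TPM of the 27 genes that are neither sinusoidal nor ligands (receptors, junction and surface genes, transcription factors and Dll4), there were 2.97, 2.46 and 1.84 TPM of Rspo3 in KO livers, against 3.31, 3.50 and 3.30 TPM in WT livers. The groups did not overlap, the WT values lay close together and KO replicate 3 was the lowest. Rspo3 per Pecam1 was 0.822, 0.625 and 0.411 in KO livers, against 0.839, 0.920 and 0.952 in WT livers, and Rspo3 per Eng was 0.208, 0.167 and 0.139 in KO livers, against 0.240, 0.240 and 0.254 in WT livers. Per Kdr the groups met, with KO replicate 1 at 0.526 and WT replicate 2 at 0.523. Wnt2 had 0.453, 0.462 and 0.412 TPM for each 100 TPM of the 27 genes in KO livers and 0.421, 0.493 and 0.605 TPM in WT livers, with overlap. These ratios were chosen after the values were seen and have no test. Their denominators are genes already seen to be higher in KO livers, so the ratios restate the levels above and do not show that Rspo3 changed differently from them.

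**Figure D4:**
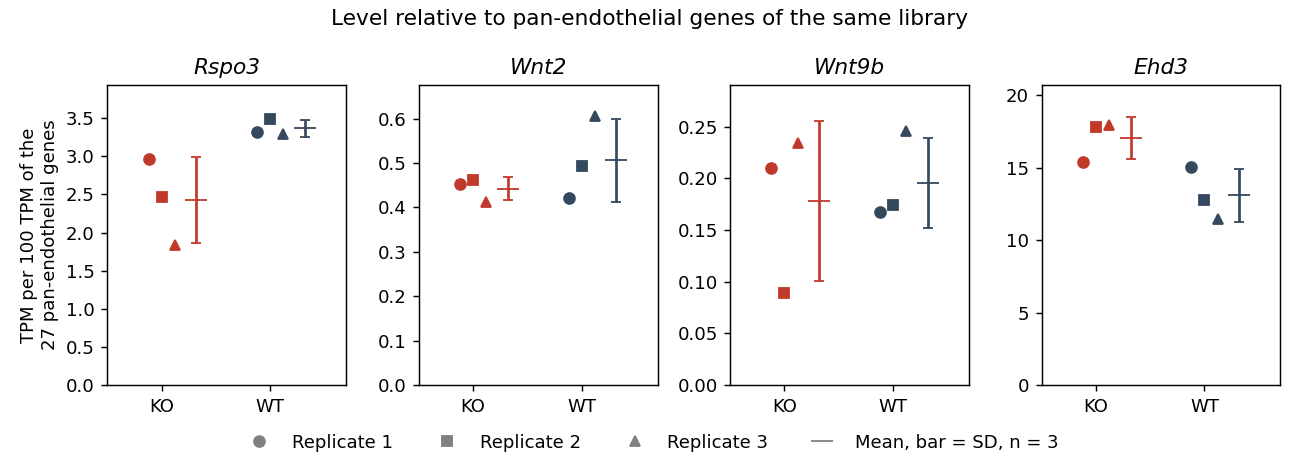
TPM of Rspo3, Wnt2, Wnt9b and Ehd3 for each 100 TPM of the 27 pan-endothelial genes in the same library, KO left of WT, with the mean and SD of each group (n = 3) at the right of its points. The KO points lie below the WT points for Rspo3 and above them for Ehd3, and overlap for Wnt2 and Wnt9b.

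Hepatocyte genes known to respond to these ligands were compared in 1 list of 18, all tested. Of these, 6 were above 0 and 12 below (median log2 -0.06), with none past the limma threshold and 1 wholly lower in KO. Over all genes tested 4.38% were wholly lower, so 1 of 18 is near that share. The gene of this list was Rhbg, an ammonium transporter, at 7.60, 8.71 and 8.33 TPM in KO livers and 12.7, 10.6 and 21.5 TPM in WT livers (log2 -0.73, SE 0.24). The Wnt feedback gene Axin2 had 2.59, 1.60 and 1.30 TPM in KO livers and 1.85, 1.49 and 2.75 TPM in WT livers, and glutamine synthetase, Glul, had 633, 734 and 754 TPM in KO livers and 756, 591 and 762 TPM in WT livers. Axin2 and Glul overlapped and were picked out after their values were seen. Tcf7, a Wnt effector, differed by log2 0.49 (SE 0.20), Slc1a2 by -0.31 (SE 0.19) and Cyp1a2 by -0.43 (SE 0.28), all with overlap.

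Vascular ligands, among them but not only ligands of the receptors above, formed a list of 25. Of these, 15 were tested, 11 above 0 and 4 below (median log2 0.20), none past the limma threshold. Vegfb, a ligand of Flt1, had 17.4, 16.2 and 15.2 TPM in KO livers and 9.14, 6.51 and 15.1 TPM in WT livers (log2 0.69, SE 0.26), without overlap but with WT replicate 3 next to the KO range. Vegfa, the ligand of Kdr, averaged 50.9 TPM in KO livers and 40.1 TPM in WT livers (log2 0.35, SE 0.19), and overlapped. The chemokine gene Cxcl12 (log2 0.29, SE 0.13) and Sema3c (0.42, SE 0.18) were higher without overlap, and Tgfb1 (0.57, SE 0.23) overlapped. Edn1, the vasoconstrictor endothelin 1, had 0.875, 0.539 and 0.601 TPM in KO livers and 1.05, 0.981 and 1.31 TPM in WT livers (log2 -0.34, SE 0.16). It was the sole gene of the list wholly lower in KO (4.38% of all genes were), and 3 were wholly higher (8.94%). The Tek ligands Angpt1 and Angpt2 were rare, at most 1.16 TPM in any library, and the apelin genes Apln and Apela were below the filter. Vegfa and Edn1 were named after their values were seen.

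Other endothelial transcription factors and Notch pathway genes did not stand apart. Of 28 listed, 22 were tested, 17 above 0 and 5 below (median log2 0.13). Of the 22, 0 had no overlap (8.94% of all genes were wholly higher and 4.38% wholly lower). Ets1 (log2 0.37, SE 0.15), Ets2 (0.28, SE 0.18), Maf (0.23, SE 0.16) and Elk3 (0.23, SE 0.17) had the smallest p-values. Adhesion and activation genes, 13 tested of 14, were above 0 for 9 and below for 4 (median log2 0.17). The endothelial adhesion molecule Mcam had 4.23, 3.27 and 3.87 TPM in KO livers and 2.84, 2.55 and 2.16 TPM in WT livers (log2 0.45, SE 0.15), and the coagulation inhibitor Tfpi differed by 0.39 (SE 0.15), both without overlap, as was the laminin gene Lamb1 (0.26, SE 0.14), named after its values were seen. Cav1 (0.64, SE 0.27) and Icam2 (0.47, SE 0.22) overlapped. None of these genes passed the limma threshold. Of the adhesion and activation genes, 3 were wholly higher in KO (8.94% of all genes were) and 0 wholly lower (4.38%).

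A few libraries stood at the ends of the range for most endothelial genes. WT replicate 2 was the lowest of the 6 libraries for 28 of the 39 genes, against 24.3% of all genes. KO replicate 1 was the highest for 18 (22.2% of all genes) and KO replicate 3 for another 18 (20.5%). By role, KO replicate 3 was the highest library for 7 of 10 sinusoidal genes, 6 of 10 receptor genes, 4 of 10 junction and surface genes and 0 of 5 transcription factors. KO replicate 1 was the highest for 2, 4, 5 and 4 of them, and a difference between roles was not tested. KO replicate 2 was the lowest KO library for 27 of the 39. When WT replicate 2 was left out, 22 genes were wholly higher in KO, against 14.0% of all genes, but dropping a library cannot make a separated gene overlap. In that fit 8 of the 17 genes at an unadjusted limma p under 0.05 kept it (3.44% of all genes). Without KO replicate 3, 11 genes were under that p (3.02%). With WT replicate 2 and KO replicate 1 both left out, 7 were (3.73%), and the median log2 difference was 0.25. Ehd3, Dnase1l3, Oit3, Fcgr2b, Kdr, Eng and Cdh5 stayed under an unadjusted p of 0.05 in all 17 alternative settings tried, and none of the 7 passed after adjustment in any.

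**Figure D5:**
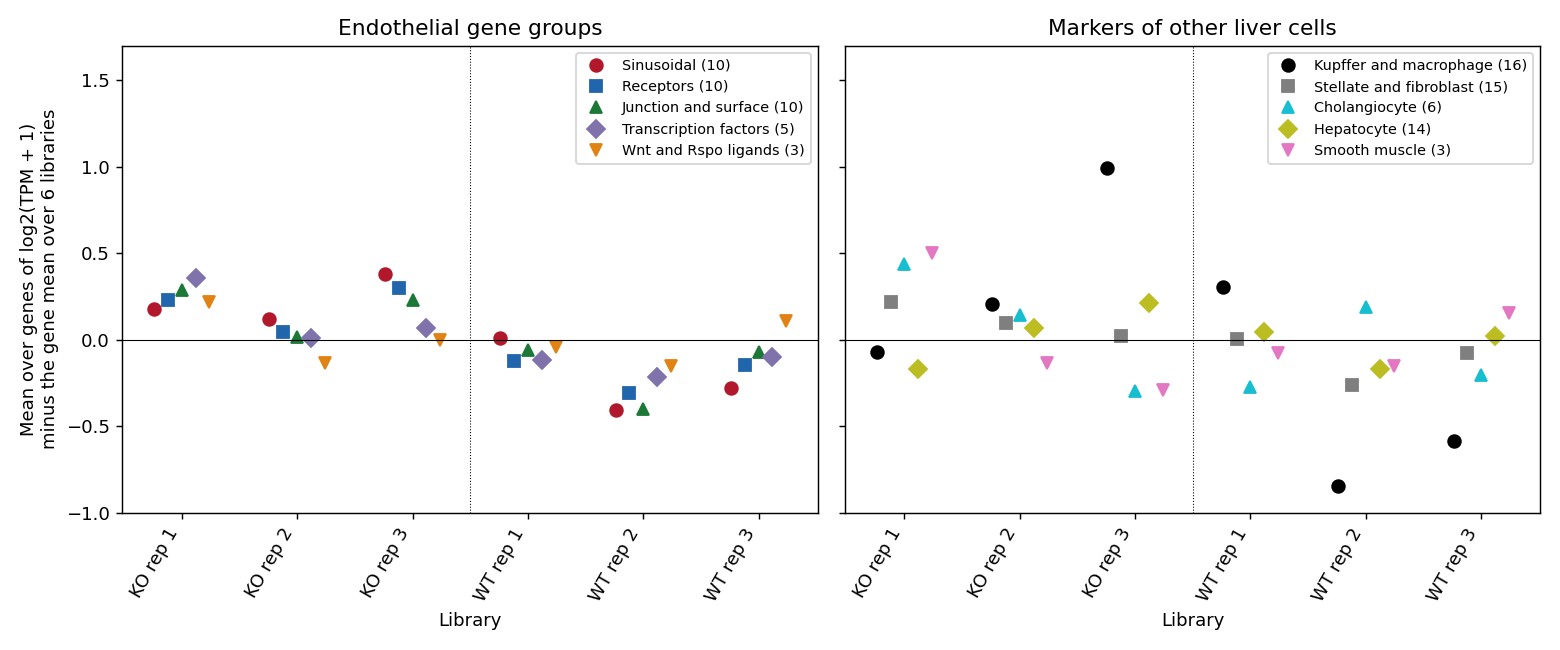
Deviation of log2(TPM + 1) from each gene's own average in the 6 libraries, averaged over the tested genes of each list, for endothelial groups at the left and markers of other liver cells at the right. Macrophage markers span from -0.84 in WT replicate 2 to 0.99 in KO replicate 3, a wider range than any endothelial group. KO replicate 1 is the highest library for stellate, cholangiocyte and smooth muscle markers. It is also the highest for the junction and surface genes, the transcription factors and the Wnt and Rspo ligands.

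Markers of other liver cells were set beside these libraries. Stellate cell and fibroblast markers were above 0 for 14 of 15 (median log2 0.20), summing to 530 to 627 TPM in KO livers and 444 to 532 TPM in WT livers. Cholangiocyte markers summed to 54.0 to 83.8 TPM in KO livers and 52.1 to 87.9 TPM in WT livers, and smooth muscle markers to 5.60 to 14.5 TPM in KO livers and 6.79 to 8.81 TPM in WT livers, with KO replicate 1 the highest. Lymphocyte markers were above 0 for 6 of the 8 tested, with sums of 10.5 to 16.2 TPM in KO livers and 7.49 to 13.9 TPM in WT livers. Red blood cell transcripts summed to 344 to 608 TPM in KO livers and 368 to 436 TPM in WT livers. Hepatocyte markers were counted above 0 for 9 of 14 (median log2 0.07). That count includes Alb, which had the same value in every library (98738 TPM), so its difference is rounding error and not a rise. Of the 6 lymphatic endothelial markers tested, 4 were above 0 (median log2 0.12). Among them Lyve1 and Flt4 are also endothelial genes described above, and Reln is also one of the stellate markers. This list is therefore not separate from the others. Pdpn, the lymphatic surface gene podoplanin, picked after its values were seen, lay below the filter at 0.0994 to 1.42 TPM in KO livers and 0.0526 to 0.327 TPM in WT livers. The part of these cells in the endothelial values was not tested.

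The genes share no common position. They lie on 14 chromosomes, with 7 on chromosome 2, and 4 pairs are close neighbours. Robo4 and Esam are 114.1 kb apart on chromosome 9 (log2 0.26 and 0.11), Gata4 and Sox7 are 672.0 kb apart on chromosome 14 (0.26 and 0.19), and Ramp2 and Cd300lg are 793.3 kb apart on chromosome 11 (0.41 and 0.51). Calcrl lies 710.9 kb from the unexpressed Aplnr on chromosome 2.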

How the data were processed

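Per the labels' protocols, TRIzol was used to isolate RNA of flash-frozen liver, which was sequenced on a HiSeq system. FastQC, Trimmomatic and mm10 are named in the submitters' processing notes. For the aligner, quantification tool, annotation and strandedness, nothing is stated (not given in the sources used here). The deposited values stand in columns named TPM per the file headers, but are on a log2 scale, since values below 0 occur and back-transformed columns sum to 983800 to 1018118. Their sorted values nearly coincide between libraries, as quantile normalization leaves them, so a shift of all genes cannot be seen. The gene lengths in bases are the deposited ones, per the file headers.

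Values were turned back to TPM (a missing value as 0), genes with a mean of at least 0.5 TPM were kept, and log2(TPM + 1) was compared with limma 3.58.1 in R 4.3.3 (group as the only term, eBayes with trend). Tests were two-sided, p-values were adjusted by Benjamini-Hochberg over the 14155 genes kept, and the threshold was 0.05. The pseudocount of 1 understates the change of low genes. Differences are KO minus WT. TPM keeps no depth, so precision rests on 3 libraries per group. The test was tested on simulated data. The simulated differences were larger than those of the endothelial genes, so this does not show what the test can detect at their size. The exact permutation test of 3 against 3 libraries cannot go below p = 0.1 and was not used for single genes. All 40 endothelial genes are named. Of other lists, up to 4 genes with the smallest p are named, besides those said to be picked after their values were seen. Angpt1, Angpt2, Apln, Apela, Alb and Reln are also named, but not for their p. The genes and lists were chosen with earlier results of these data known. Vegfd and Trf were matched through older symbols in the RefSeq GRCm38.p6 gene table. Alternatives were other pseudocounts, filters, scalings and moderation, the replicate number as a block, and each library left out.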

Additional observations from a re-analysis of the deposited data

How the results depend on the processing

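Over 17 alternative settings, the endothelial genes past the adjusted limma threshold numbered 0 in each, with smallest adjusted p-values from 0.343 to 0.989. The count without overlap between groups was 18 to 29, and the median log2 difference was 0.29 to 0.49 in the fits that left out 1 library and 0.25 without WT replicate 2 and KO replicate 1 together. The 22 genes without overlap became 20 after median scaling or quantile normalization, where all genes split into 930 higher and 905 lower (median scaling) against 1266 and 620 as deposited. The number of all genes past the threshold, 1 (Fabp4), was 0 without a filter, with the deposited log2 values and with the replicate block, 3 without WT replicate 2 and KO replicate 1, and 0 to 6 when 1 library was left out. Of 649 member values under alternatives, 639 kept their direction and their side of the threshold and 10, of 4 genes, turned their sign. Leaving out 1 library also moved differences that were not past the threshold by over 1.5 times, among them Egfl7 (0.11 without WT replicate 2), Stab1 (0.19 without WT replicate 2), Clec4g (0.11 without WT replicate 3), Erg (0.057 without KO replicate 1), Sox17 (0.14 without KO replicate 1) and Emcn (0.13 without KO replicate 1). It moved Nos3 between -0.16 and 0.081, Lyve1 between -0.13 and 0.46, Esam between -0.0093 and 0.17 and Rspo3 between -0.25 and 0.066. Without WT replicate 2 and KO replicate 1, Nos3 was 0.016, Lyve1 -0.15 and Esam -0.091, and with array weights Nos3 was 0.0050. The cause was not tested. Wnt9b fell under the filter at 5 TPM and without WT replicate 3, KO replicate 1, KO replicate 3, or WT replicate 2 and KO replicate 1.

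Correlations gave no sign that equal replicate numbers mark pairs, but deviations from means of only 3 libraries cannot exclude it. Deviations of same-numbered libraries correlated at -0.261, -0.265 and -0.0494 over genes, and no library correlated best with its own number. With the replicate block, 14 endothelial genes stayed at an unadjusted p under 0.05, against 17 without it, and the smallest adjusted p was 0.822. Unknown depth limits what can be said of genes near the filter, such as Wnt9b, Sox17 and Sox7.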
